A study of Homo sapiens with 29 samples.

Results

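The linker histone H1 genes were followed through knockdown of the zinc finger transcription factor ZNF148 in human myoblasts. The genes were chosen by name, without a threshold on their values but with earlier results of these data known. The rule took the somatic H1 genes of the study's array, each named through the RefSeq accession of its probe. The 6 genes described here are H1-1, H1-2, H1-3, H1-4 and H1-5, the replication-linked members of the histone cluster, and H1-10, a replacement member. They are 6 of 18432 genes with a tested probe, each had 1 probe, and all 6 probes were among the 38839 probes tested. Replication-linked H1 was set against replacement H1 across all 10 groups of arrays.

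The cells were LHCN-M2, a human skeletal muscle myoblast line that was immortalized with telomerase and CDK4, so every group carries those transgenes. They were transfected with 20 nM of ZNF148 siRNA (siZNF148) or of nontargeting siRNA (siControl) and kept in growth media for 24 h (subconfluent), 48 h or 96 h (both confluent), or in differentiation media for 48 h or 96 h. Each combination of siRNA, media and hour had 3 arrays, except siControl at 96 h in growth media, which had 2, giving 29 arrays. Each array was 1-colour and read the RNA of 1 culture labelled as a biological replicate. Differentiation media followed transfection by some days, so the same hour in both media is not the same time since transfection, and at 24 h cell density differs along with time, which cannot be told apart. In bulk RNA, fewer cells of a type and less RNA per cell cannot be told apart either.

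Linker histone H1 binds the nucleosome where DNA enters and leaves it and helps to pack nucleosomes into denser chromatin. The replication-linked H1 genes are transcribed mostly in S phase, together with the core histone genes, and their messages end in a stem loop in place of a poly(A) tail. H1-10 lies outside the cluster, and its message is polyadenylated and made outside S phase as well. When myoblasts leave the cell cycle to become myotubes, synthesis of replication-linked histones is known to decline. The labelling kit primes cDNA from poly(A) tails, so the signal of a replication-linked H1 gene depends on its polyadenylated transcripts, and whether a change is in transcript amount or in the polyadenylated share was not tested.

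The sequence just before each start site is shown because of 2 motifs that H1-10 lacked. Within the 150 bases before the start, CCAAT was in all 5 clustered genes and AAACACA in all of them but H1-1. RefSeq promoter windows were found for all 6 genes, and the 150 bases before each start are printed 5′ to 3′ on the gene's strand. Capitals mark the motifs AAACACA (the H1 box, described in promoters of replication-linked H1 genes), CCAAT and TATANA, searched on both strands, with overlapping TATANA matches run together.
H1-1 (GRCh38.p14, chr6:26017788-26017937, - strand): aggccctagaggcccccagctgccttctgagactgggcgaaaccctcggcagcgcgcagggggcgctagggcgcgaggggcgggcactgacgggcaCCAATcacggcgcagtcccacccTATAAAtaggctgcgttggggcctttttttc
H1-2 (GRCh38.p14, chr6:26056471-26056620, - strand): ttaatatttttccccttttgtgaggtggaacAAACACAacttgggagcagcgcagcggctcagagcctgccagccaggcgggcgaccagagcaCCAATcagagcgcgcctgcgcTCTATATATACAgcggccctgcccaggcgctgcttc
H1-3 (GRCh38.p14, chr6:26234988-26235137, - strand): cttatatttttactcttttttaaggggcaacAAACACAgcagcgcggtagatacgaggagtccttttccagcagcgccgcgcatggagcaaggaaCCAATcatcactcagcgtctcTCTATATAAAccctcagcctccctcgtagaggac
H1-4 (GRCh38.p14, chr6:26156179-26156328, + strand): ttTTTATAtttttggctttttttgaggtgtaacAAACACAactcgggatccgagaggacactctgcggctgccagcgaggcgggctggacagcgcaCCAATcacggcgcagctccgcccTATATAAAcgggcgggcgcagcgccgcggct
H1-5 (GRCh38.p14, chr6:27867589-27867738, - strand): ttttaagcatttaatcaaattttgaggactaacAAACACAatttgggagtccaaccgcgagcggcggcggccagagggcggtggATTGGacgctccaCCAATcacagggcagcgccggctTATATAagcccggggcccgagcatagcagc
H1-10 (GRCh38.p14, chr3:129316287-129316436, - strand): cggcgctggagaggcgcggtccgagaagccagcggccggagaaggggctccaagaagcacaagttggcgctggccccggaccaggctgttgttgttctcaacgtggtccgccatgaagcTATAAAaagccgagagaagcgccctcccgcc
The H1 box was present in the windows of H1-2, H1-3, H1-4 and H1-5, beginning 119 bases before the start in H1-2 and H1-3 and 117 bases before it in H1-4 and H1-5. The same motif is in 2.71% of the 35116 promoter windows of that length. The window of H1-1 held no match, and its nearest match lay 183 bases before the start on the opposite strand. CCAAT was in all 5 clustered genes, 53 to 57 bases before the start, against 23.5% of all windows, and H1-5 had a further match on the opposite strand. H1-10 had neither motif in these letters and shared with the others only TATANA, 31 bases before its start, which is in 11% of all windows. H1-1, H1-2, H1-3 and H1-4 start close together on chromosome 6, H1-5 lies further along that chromosome, and H1-10 is on chromosome 3.

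The label of the knockdown was checked first. On each of the 3 siZNF148 arrays at 24 h, ZNF148 lay between 7.02 and 7.29 on the log2 scale, against 8.62 to 8.68 with siControl, and its log2 difference lay between -2.74 and -1.53 in the 5 knockdown comparisons. The share of probes well above background was 41.6% to 56.5% per array, no spot was saturated, and the few arrays per group limit the precision. Of 6 myoblast markers, 5 (MYOD1, DES, MYF5, CDH15 and NCAM1) were well above background on all 3 siControl arrays at 24 h and PAX7 on 1. Of 8 myotube markers, TNNT1 and TNNC2 were so on all 3, ACTA1 and MYH3 on 2, TNNI1 and MYOG on 1, and CKM and MYH8 on none. The siControl replicate 1 array at 48 h in growth media stands apart: its median over 8 myotube markers was 16.54 on the log2 scale, against 8.20 and 8.23 on the other 2 arrays of its group. Without it, the number of H1 genes called was as with it for siControl cells between media at 48 h (4), for siControl from 48 to 96 h in growth media (0), and for the differences of knockdown effects between media at 48 h (5), between 24 and 48 h (4) and between 48 and 96 h (2). The knockdown at 48 h in growth media is given with and without it where it is described. The 24 h arrays filled 1 slide with its own scan, and the later arrays were spread over the other 3 slides.

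**Figure D1:**
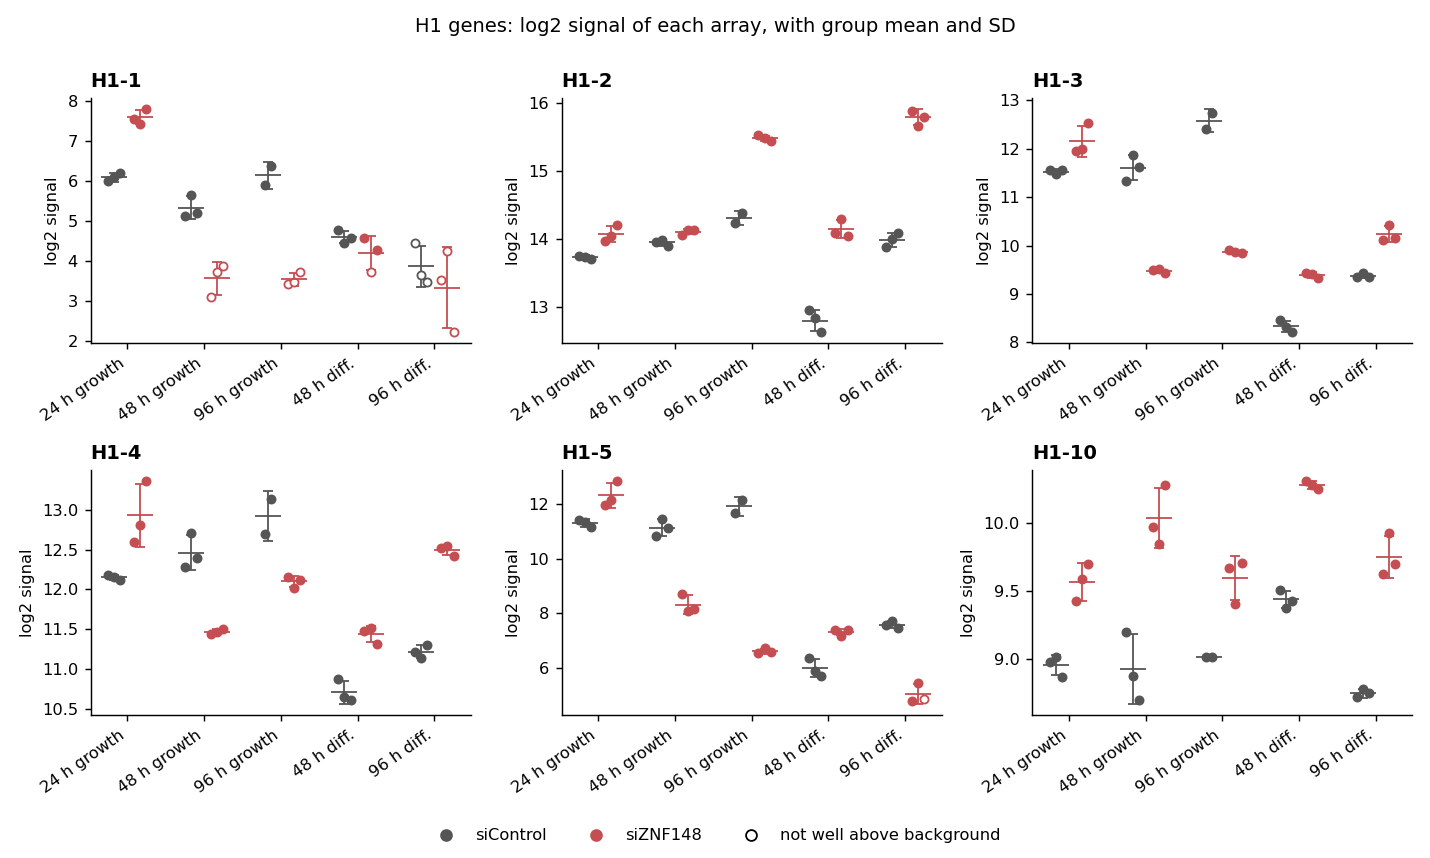
Each panel plots 1 H1 gene: the y axis is the log2 signal (each panel has its own range), the x axis the hour and media, each point 1 array, each bar the group mean with its SD, and open points are arrays where the probe was not well above background. The siZNF148 arrays of H1-5 reach 12.84 at 24 h and drop to between 6.55 and 6.73 at 96 h in growth media. Those of H1-2 rise to between 15.44 and 15.53 there. Those of H1-10 lie above the siControl arrays in all 5 conditions, and the share of all probes so separated was not computed.

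At 24 h, before the cells were confluent, all 6 H1 genes were higher with siZNF148. The log2 signal of H1-1 was 5.98, 6.09 and 6.18 on the siControl arrays and 7.55, 7.42 and 7.78 on the siZNF148 arrays. That of H1-5 was 11.42, 11.33 and 11.15 against 11.97, 12.14 and 12.84. Every siZNF148 array of both genes lay above every siControl array, and siZNF148 replicate 3 was the highest. The share of all probes separated in this way was not computed. H1-1 rose by 1.5 (SE 0.355) and H1-5 by 1.02 (SE 0.229) on the log2 scale in limma, with adjusted p = 0.00313 and 0.00207, and these 2 genes passed the call used throughout: a Benjamini-Hochberg adjusted p under 0.05 over all tested probes and a change of more than 2-fold. Of all tested probes, 1.91% were called higher at 24 h. The other 4 genes passed the adjusted p but not the fold: H1-4 with a log2 difference of 0.77 (adjusted p = 0.00038), H1-3 with 0.63 (adjusted p = 0.0012), H1-10 with 0.62 (adjusted p = 0.000488) and H1-2 with 0.35 (adjusted p = 0.00489). At any fold, 11% of tested probes were higher at that adjusted p. With the scanner signals background-corrected by the normexp model, H1-1 was at 0.99 and not called. The call of H1-5 rested on single arrays: its difference was 0.76 without siZNF148 replicate 3 and 0.94 without siControl replicate 3, both under 2-fold. The median change of all tested probes in any comparison was within 0.046 of 0, as quantile normalization holds it.

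At 48 h in growth media the clustered genes parted. H1-5 had log2 signals of 10.82, 11.45 and 11.14 with siControl and 8.72, 8.09 and 8.16 with siZNF148. H1-3 had 11.34, 11.87 and 11.62 against 9.49, 9.51 and 9.44. H1-1 had 5.12, 5.65 and 5.20 against 3.09, 3.73 and 3.88, and its siZNF148 arrays were not well above background. For all 3 genes the groups were far apart. H1-5 fell by 2.81 (SE 0.229; adjusted p = 1.97e-09), a 7.03-fold difference, and H1-3 fell by 2.13 (SE 0.134; adjusted p = 3.29e-11). H1-1, measured against the lowest signal well above background on each array, was at least 2.09-fold lower (adjusted p = 0.000278), though with normexp correction its log2 difference was -0.37, short of that bound and not called. These 3 genes were called lower, as were 10.2% of tested probes. H1-4 had 12.28, 12.71 and 12.39 against 11.44, 11.47 and 11.50. Its log2 difference was -0.99 (adjusted p = 6.54e-06), just short of 2-fold, and it passed the fold without siControl replicate 1 (-1.08), siControl replicate 3 (-1.02) or siZNF148 replicate 3 (-1.0).

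H1-2 and H1-10 were not lower. H1-2 had 13.96, 13.99 and 13.89 with siControl and 14.06, 14.13 and 14.13 with siZNF148. The arrays of the groups did not overlap, and the share of all probes so separated was not computed. The difference of 0.16 (95% interval -0.02 to 0.34, adjusted p = 0.138 in limma) did not pass. H1-10 had 9.20, 8.88 and 8.70 against 9.97, 9.85 and 10.28. It rose by 1.11 (SE 0.119; adjusted p = 9.44e-08) and was called higher, as were 9.83% of tested probes. Its difference was 1.00 without siControl replicate 3 and 0.99 without siZNF148 replicate 3, and then not past 2-fold. Without the siControl replicate 1 array that stood apart, H1-5, H1-3, H1-1 and H1-10 were still called, at -2.97, -2.26, -1.86 and 1.25 on the log2 scale, the H1-1 value being against arrays at background. Within each of the 3 slides H1-5 was lower with siZNF148, with log2 differences from -3.29 to -2.42.

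At 96 h in growth media the knockdown effects on H1-5 and H1-2 lay further apart than in the other 4 comparisons. H1-5 had log2 signals of 11.67 and 12.15 with siControl and 6.55, 6.73 and 6.58 with siZNF148. It fell by 5.29 (SE 0.256; adjusted p = 6.71e-13), a 39.1-fold difference. H1-3 had 12.41 and 12.75 against 9.90, 9.86 and 9.85 and fell by 2.71 (SE 0.149; adjusted p = 4.9e-12). H1-1 had 5.89 and 6.37 against 3.43, 3.47 and 3.73, again not well above background with siZNF148, and was at least 5.01-fold lower (adjusted p = 1.3e-05). With normexp correction the log2 difference of H1-1 was -0.85, short of that bound and not called. H1-2, in contrast, had 14.23 and 14.38 with siControl and 15.53, 15.48 and 15.44 with siZNF148, and rose by 1.18 (SE 0.0967; adjusted p = 2.23e-09). Thus 3 genes were called lower and 1 higher, against 10.3% and 10.5% of tested probes. H1-4 had 12.70 and 13.14 against 12.15, 12.02 and 12.12, a difference of -0.82 (adjusted p = 0.000233) that passed the fold only without siControl replicate 1 (-1.04). H1-10 had 9.02 on both siControl arrays and 9.67, 9.41 and 9.71 with siZNF148, a difference of 0.58 (adjusted p = 0.00103). Both siControl arrays of this comparison were on 1 slide. Within that slide, which held 1 siZNF148 array of this hour, the difference was -5.18 in H1-5 and 1.17 in H1-2.

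**Figure D2:**
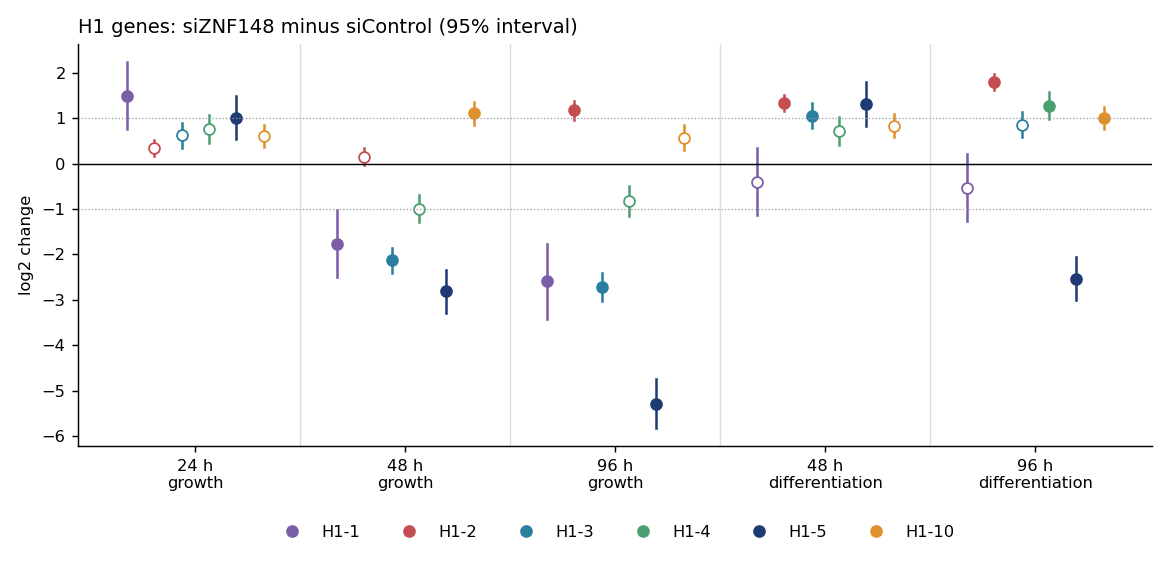
Points are the log2 change of each H1 gene, siZNF148 minus siControl, at each hour and media, with the 95% interval of the limma fit as a line. Values of H1-1 in groups at background are as fitted, and filled points were called (adjusted p under 0.05 and beyond the dotted lines at 2-fold). All 6 genes lie above 0 at 24 h, H1-5 lies at -5.29 at 96 h in growth media and at 1.32 at 48 h in differentiation media, and H1-10 lies above 0 in each of the 5 comparisons.

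In differentiation media at 48 h, 3 of the 5 clustered genes rose with the knockdown. H1-2 had log2 signals of 12.95, 12.83 and 12.63 with siControl and 14.09, 14.30 and 14.05 with siZNF148, a rise of 1.34 (SE 0.0865; adjusted p = 1.56e-11). H1-3 had 8.45, 8.32 and 8.21 against 9.43, 9.41 and 9.33, a rise of 1.06 (adjusted p = 5.1e-07). H1-5 had 6.37, 5.90 and 5.73 against 7.38, 7.19 and 7.39, a rise of 1.32 (SE 0.229; adjusted p = 3.88e-05). These 3 genes were called higher, as were 13.2% of tested probes. In them each siZNF148 array lay above each siControl array, and the share of all probes so separated was not computed. H1-4 (0.73, adjusted p = 0.000185) and H1-10 (0.84, adjusted p = 2.88e-06) passed the adjusted p but not the fold. H1-1 was well above background on 2 of 3 siZNF148 arrays, and its difference of -0.40 (95% interval -1.14 to 0.34) did not pass.

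At 96 h in differentiation media H1-5 fell with the knockdown, while H1-2, H1-4 and H1-10 rose. H1-5 had log2 signals of 7.57, 7.71 and 7.48 with siControl and 4.81, 5.47 and 4.89 with siZNF148. It fell by 2.53 (SE 0.229; adjusted p = 6.93e-09), and its siZNF148 replicate 3 array was not well above background. It was the only H1 gene called lower, against 11.4% of tested probes. H1-2 had 13.88 to 14.09 on the 3 siControl arrays against 15.89, 15.66 and 15.80, a rise of 1.80 (SE 0.0865; adjusted p = 4.15e-13). H1-4 had 11.21, 11.14 and 11.30 against 12.52, 12.54 and 12.42, a rise of 1.28 (SE 0.145; adjusted p = 1.91e-07). H1-10 had 8.72, 8.78 and 8.75 against 9.63, 9.93 and 9.70, a rise of 1.01 (adjusted p = 3.41e-07). These 3 genes were called higher, as were 9.18% of tested probes. The call of H1-10 lies at the fold threshold: without siControl replicate 1 its difference was 0.99 and without siZNF148 replicate 2 it was 0.92. H1-3 differed by 0.86 (adjusted p = 1.24e-05), under 2-fold, and H1-1 was not well above background on any of the 6 arrays, so no change is given for it.

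Whether the effect of the knockdown differed between hours was tested with interaction contrasts. From 24 to 48 h in growth media the log2 effect moved by -3.83 in H1-5, -2.76 in H1-3 and -1.76 in H1-4 (adjusted p = 9.34e-09, 4.25e-10 and 7.76e-07). H1-1 was also called (adjusted p = 2.6e-05), but its siZNF148 arrays at 48 h were not well above background, so no size is given, and with normexp correction it was -1.36. These 4 genes were called, against 8.36% of tested probes lower. In H1-2 the effect moved by -0.18 (95% interval -0.44 to 0.07) and in H1-10 by 0.49 (95% interval 0.14 to 0.84). From 24 to 96 h H1-1, H1-3, H1-4 and H1-5 were again called lower, against 8.89% of tested probes, with H1-5 at -6.30 (95% interval -7.02 to -5.59), with H1-1 again set against arrays at background, whereas H1-2 moved by 0.83 and H1-10 by -0.04 (95% interval -0.41 to 0.34). From 48 to 96 h only H1-5 (-2.47, adjusted p = 4.38e-05) and H1-2 (1.01, adjusted p = 1.66e-05) were called, in opposite directions, against 1.42% of tested probes lower and 2.48% higher. H1-2 missed the fold there without siControl replicate 1 at 96 h (0.94), and without siControl replicate 2 at 48 h, siZNF148 replicate 1 at 48 h or siZNF148 replicate 1 at 96 h (0.99 each).

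The effect of the knockdown differed between media in all 5 clustered genes at 48 h, H1-1 lying close to the threshold. The effect in differentiation media was above that in growth media by 4.13 in H1-5 (adjusted p = 2.3e-09), 3.19 in H1-3 (adjusted p = 3.62e-11), 1.72 in H1-4 (adjusted p = 9.06e-07), and 1.18 in H1-2 (adjusted p = 1.26e-07), and H1-1 passed with adjusted p = 0.0446. These 5 genes were called, against 6.69% of tested probes higher, and H1-10 was not (-0.27, 95% interval -0.62 to 0.08). The siZNF148 arrays of H1-1 in growth media were not well above background, so no size is given for it. Its call was lost with normexp correction (0.38) and with slide as a fixed block (adjusted p = 0.0928), and was lost when any of 9 of the 12 arrays was left out (adjusted p up to 0.124), all but siControl replicate 1 and siZNF148 replicate 3 in growth media and siZNF148 replicate 2 in differentiation media. At 96 h the effect was above that in growth media by 3.57 in H1-3, 2.76 in H1-5 and 2.10 in H1-4 (adjusted p = 6.89e-11, 4.08e-06 and 4.04e-07), against 4.43% of tested probes. H1-1 was also called (adjusted p = 0.00658), but 3 of its 4 groups had no array well above background, so no size is given, and the call was lost with normexp correction (0.75, under 2-fold) and with only the arrays compared (adjusted p = 0.0725). H1-2 differed by 0.62 (adjusted p = 0.00115), under 2-fold, and H1-10 by 0.43 (adjusted p = 0.0928).

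In siControl cells the replication-linked genes were lower in differentiation media. At 48 h the log2 difference of H1-5 from growth media was -5.14 (SE 0.229; adjusted p = 1.4e-13), with group means of 6.00 ± 0.331 (SD, n = 3) and 11.14 ± 0.315 (SD, n = 3). The difference was -3.28 in H1-3, -1.75 in H1-4 and -1.14 in H1-2 (adjusted p = 3.16e-14, 2.31e-09 and 5.51e-10). These 4 genes were called lower, against 6.56% of tested probes, while H1-1 differed by -0.73 (adjusted p = 0.122) and H1-10 by 0.51 (adjusted p = 0.00132). At 96 h it was -4.32 in H1-5, -3.21 in H1-3 and -1.70 in H1-4, and H1-1 was at least 3.87-fold lower (adjusted p = 9.95e-05), though with normexp correction its log2 difference was -0.79, short of that bound and not called. They were 4 of 6 genes called lower, against 6.78% of tested probes. H1-2 differed by -0.32 (adjusted p = 0.014) and H1-10 by -0.27 (adjusted p = 0.133).

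With siZNF148, H1-5 was the 1 H1 gene called between media. Its log2 difference, differentiation less growth media, was -1.0 at 48 h and -1.56 at 96 h (adjusted p = 0.00429 and 2.87e-05), against 2.1% and 4.02% of tested probes. The call at 48 h was lost without siZNF148 replicate 1 in growth media (-0.80) and without siZNF148 replicate 2 in differentiation media (-0.94). At 48 h the differences were 0.04 for H1-2 (95% interval -0.14 to 0.22), -0.09 for H1-3 (95% interval -0.37 to 0.19) and -0.03 for H1-4 (95% interval -0.33 to 0.27). At 96 h they were 0.30, 0.36 and 0.40, of which only H1-2 passed the adjusted p (0.0139). For H1-10 they were 0.24 and 0.16.

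**Figure D3:**
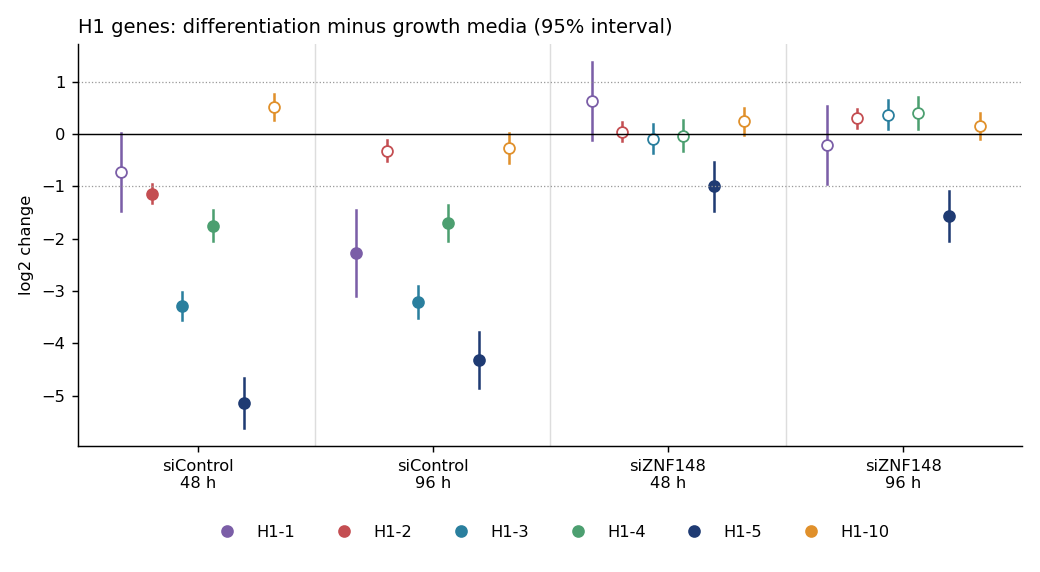
Points are the log2 change of each H1 gene, differentiation minus growth media, in siControl and in siZNF148 cells at 48 and 96 h, with the 95% interval of the limma fit; filled points were called, and dotted lines mark 2-fold. In siControl cells H1-5 lies at -5.14 and -4.32 and H1-3 at -3.28 and -3.21, whereas in siZNF148 cells H1-5 lies at -1.0 and -1.56 and H1-2, H1-3, H1-4 and H1-10 lie within 0.40 of 0.

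The genes also differed in how they went from 48 to 96 h. In siControl cells in growth media no H1 gene was called, against 0.317% of tested probes higher. By unadjusted p under 0.05 in limma it was 4 of 6, against 2917 of all 18432 genes. The methods' test was run only on the knockdown comparisons. H1-3 came nearest, with a log2 difference of 0.97 (adjusted p = 0.00093), and was called without siControl replicate 2 at 48 h (1.1) or siControl replicate 1 at 96 h (1.13). In siControl cells in differentiation media H1-5 rose by 1.59, H1-2 by 1.19 and H1-3 by 1.04 (adjusted p = 1.24e-05, 1.38e-09 and 2.77e-06), against 4.69% of tested probes higher, and H1-3 missed the fold without siControl replicate 3 at 48 h (0.98). With siZNF148, H1-2 rose by 1.37 in growth media (adjusted p = 1.67e-10) and by 1.64 in differentiation media (adjusted p = 1.2e-11), while the difference of H1-5 was -1.70 (adjusted p = 1.05e-05) and -2.26 (adjusted p = 1.49e-07). H1-4 rose by 1.06 in differentiation media (adjusted p = 8.32e-06), and by 1.00, not past the fold, without siZNF148 replicate 3 at 48 h. For siZNF148 in growth media, 3.48% of tested probes were called higher and 1.55% lower, and in differentiation media 3.73% and 3.45%. H1-10 was lower at 96 h than at 48 h with siZNF148 in growth media by 0.44 and in differentiation media by 0.52, and in siControl cells it was lower in differentiation media by 0.69 (adjusted p = 9.23e-05), each under 2-fold. In siControl cells in growth media it differed by 0.09 (95% interval -0.19 to 0.37).

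Over all 10 groups, H1-5 had the widest range of group means, 7.26 on the log2 scale, followed by H1-3 (4.25), H1-2 (2.99), H1-4 (2.22) and H1-10 (1.53). H1-1 has no measured range, since its lowest groups were not well above background. The SD within groups had a median of 0.323 for H1-5 and 0.107 for H1-10. Ordered from high to low, H1-5 was highest with siZNF148 at 24 h (12.32), then siControl at 96 h, 24 h and 48 h in growth media (11.91, 11.30 and 11.14). After a gap of 2.82 came siZNF148 at 48 h in growth media (8.32), siControl at 96 h and siZNF148 at 48 h in differentiation media (7.59 and 7.32), siZNF148 at 96 h in growth media (6.62), siControl at 48 h in differentiation media (6.00) and siZNF148 at 96 h in differentiation media (5.06). Of the 9 neighbours in that order, arrays overlapped in 2: the highest with the next, and siControl at 24 h with siControl at 48 h. All 3 siControl groups in growth media and siZNF148 at 24 h lay above the other 6 groups.

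H1-3 and H1-4 spanned smaller ranges than H1-5, and their orders differed from that of H1-5 in part. H1-3 was highest in siControl at 96 h in growth media (12.58 ± 0.237, SD, n = 2) and lowest in siControl at 48 h in differentiation media (8.33 ± 0.117, SD, n = 3), and 3 of its 9 neighbours overlapped. H1-4 was highest with siZNF148 at 24 h (12.93) and siControl at 96 h in growth media (12.92), which overlapped, and lowest in siControl at 48 h in differentiation media (10.71). In H1-4, unlike H1-5, siZNF148 at 96 h in differentiation media ranked as the third group (12.49), next to siControl at 48 h in growth media (12.46), with overlapping arrays. In H1-3 siZNF148 at 96 h in differentiation media had rank 5 (10.23), and in H1-5 rank 10 (5.06). H1-1 was highest with siZNF148 at 24 h (7.59), and its last 6 groups, from 4.59 down to 3.33, overlapped from neighbour to neighbour, 4 of them having no array well above background.

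H1-2 and H1-10 had orders of their own. H1-2 was highest with siZNF148 at 96 h in differentiation media (15.79) and in growth media (15.48), which did not overlap each other or any other group. Its 6 middle groups, from 14.31 to 13.95, overlapped from neighbour to neighbour, and siControl at 24 h (13.73) and at 48 h in differentiation media (12.80) lay lower. For H1-10 the 5 siZNF148 groups held the top 5 places, from 10.28 to 9.57, next to siControl at 48 h in differentiation media (9.44). Then, after a gap of 0.42, came the other 4 siControl groups, from 9.02 to 8.75. Of its 9 neighbours 8 overlapped, although siZNF148 at 48 h in differentiation media lay above siZNF148 at 96 h in both media without overlap. The share of all genes with the 5 siZNF148 groups on top was not computed.

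As a description over the 10 group means, which share the arrays and their scaling, Pearson's r was 0.916 between H1-3 and H1-4, 0.877 between H1-1 and H1-5 and 0.863 between H1-3 and H1-5. It was 0.618 between H1-4 and H1-5, -0.309 between H1-2 and H1-5 and -0.444 between H1-5 and H1-10. Among genes other than H1, the 3 whose group means were most like H1-5 were CDK1 (r = 0.997), a cyclin-dependent kinase that drives mitosis, H3C2 (r = 0.996), a clustered H3 gene, and CCNA2 (r = 0.992), the cyclin of S and G2 phase. Most like H1-4 were DERA (0.954), H2AC8 (0.95) and H2AC6 (0.949), the last 2 being clustered H2A genes. The means of H1-1 include groups at background. For H1-3 they were SWAP70, RLIG1 and UBE2T (0.967 to 0.962), and for H1-1 BUD13, ZNF730 and RAD1 (0.978 to 0.973). For H1-2 they were ARPP19, RNF5 and CARD8-AS1 (0.972 to 0.96), and for H1-10 LINC02362, RCOR2 and VEGFD (0.956 to 0.95).

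Other histone and cell cycle genes were counted beside H1. Of 55 clustered core histone genes with a tested probe, 13 were called higher at 24 h, with a median log2 change of 0.73, next to 0.77 for the 5 clustered H1 genes and 0.00 for all genes, of which 2.44% were called higher. At 48 h in growth media 34 were called lower and 1, H2BC12, higher (median -1.35), against 12.2% of all genes lower and 11.7% higher. At 96 h 29 were lower and 2, H2BC12 and H2BC4, higher (median -1.26), against 12.4% and 12.3% of all genes. The clustered H1 medians at these hours were the bounds of H1-1, -1.06 and -2.32, and so limits rather than measured medians. With normexp correction the log2 difference of H1-1 was -0.37 and -0.85. H2BC12 and H2BC4 were named after their values were seen. In differentiation media 9 were higher and 7 lower at 48 h (median -0.07), shares close to those of all genes (15% and 17.2%), and 12 were higher and 10 lower at 96 h (median 0.10), against 10.4% and 12.8% of all genes, where the clustered H1 genes had medians of 1.06 and 0.86. The 0.86 includes the fitted value of H1-1, which had no array well above background at 96 h there. Of 21 S phase genes, 6 were called higher at 24 h and 18 and 20 lower at 48 and 96 h in growth media (all genes as above), with medians of 0.89, -2.14 and -2.46. CDC6, which loads the replicative helicase, rose by 1.42 (SE 0.374) at 24 h. Its mean log2 signal over all arrays was 4.46, below the 4.77 of H1-1. RRM2, a subunit of ribonucleotide reductase, had differences of -3.87 and -4.34 at 48 and 96 h. Of 11 mitosis genes, 6 passed the adjusted p at 24 h but not the fold, and all 11 were lower at 48 and 96 h in growth media, with medians of -3.25 and -4.79. Of all 18432 genes, 2847 were higher at that adjusted p at 24 h, and the shares lower at 48 and 96 h are as above.

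The kinases and chaperones that act on H1 gave the following values. CDK1, which phosphorylates H1 in mitosis, differed by 0.78 at 24 h (adjusted p = 0.000897), fell by 2.93 at 48 h and by 4.79 at 96 h in growth media, rose by 1.08 at 48 h and fell by 3.1 at 96 h in differentiation media. CDK2, which phosphorylates H1 in S phase, had differences of -2.67 and -2.53 at 48 and 96 h in growth media and of -0.71, -0.55 and -0.62 that did not pass in the other 3. NASP, a histone chaperone that binds H1, rose by 1.4 at 24 h (adjusted p = 1.29e-07). Of 18 chaperones and competitors of H1 it was the only gene called there, against 2.44% of all genes higher and 3.03% lower. At 48 h in growth media 6 of these 18 were called lower and at 96 h 5, against 12.2% and 12.4% of all genes. HMGA1 and HMGB2, chromatin proteins that compete with H1 for nucleosomes, were among them: the differences were -2.57 and -2.51 in HMGA1, -1.95 and -2.70 in HMGB2 and -2.33 and -1.44 in HMGA2, and HMGB1, HMGB3 and PTMA made up the rest. In differentiation media 4 of the 18 were called lower at 48 h (HMGA1, HMGB1, HMGB3 and PTMA) and 2 at 96 h (PTMA, and NASP at -1.15), counts close to the 17.2% and 12.8% of all genes.

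**Figure D4:**
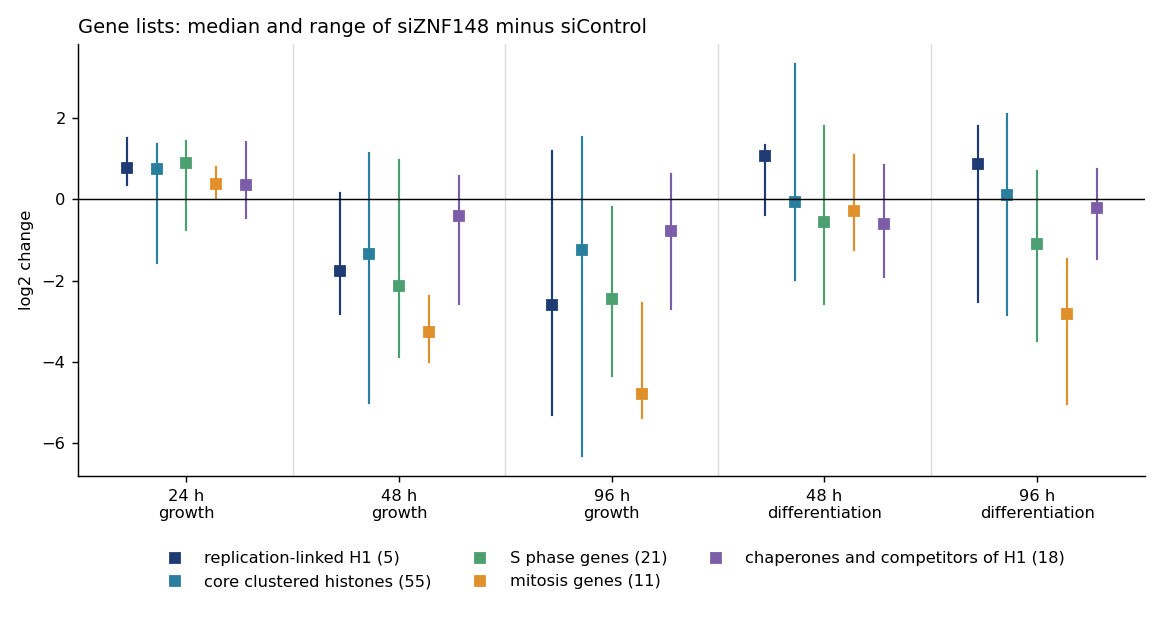
Squares are the median log2 change, siZNF148 minus siControl, of the genes of each list, and lines run from the lowest to the highest gene; the number of genes with a tested probe is in brackets in the key. The clustered H1 medians at 48 and 96 h in growth media are the fitted values of H1-1 and become -1.06 and -2.32 with H1-1 at its bound. At 96 h in differentiation media the clustered H1 median includes H1-1 as fitted, with no array well above background. All 5 medians lie above 0 at 24 h and below 0 at 48 and 96 h in growth media, whereas in differentiation media the clustered H1 genes (1.06 and 0.86) lie above the S phase genes (-0.56 and -1.11) and mitosis genes (-0.29 and -2.81).

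Markers of muscle moved with these comparisons as well. The 8 myotube markers were all called higher with siZNF148 at both later hours in growth media and at 48 h in differentiation media, with median log2 changes of 5.75 (8.03 without the siControl replicate 1 array at 48 h), 5.51 and 4.99, and 3 of 8 (MYH8, TNNC2 and TNNI1) at 96 h in differentiation media. Of all genes, 11.7%, 12.3%, 15% and 10.4% were called higher in these comparisons, in that order. At 24 h 0 of 8 were called in limma, and 0 had an unadjusted p under 0.05. Their median level over the markers ran at 24 h from 4.84 to 5.08 on the siControl and from 4.89 to 5.21 on the siZNF148 arrays. In growth media it ran at 48 h from 8.20 to 16.54 against 17.72 to 17.78, and at 96 h it was 10.53 and 10.57 against 17.53 to 17.65. In differentiation media it ran at 48 h from 10.37 to 12.07 against 18.04 to 18.07, and at 96 h from 14.66 to 14.92 against 18.01 to 18.08. Of 5 fibroblast markers, 1, THY1, was called lower at 48 and at 96 h in growth media (log2 differences of -3.01 and -4.76). Among all genes, 12.2% and 12.4% were called lower there. In differentiation media 2 of the 5 were called lower at 48 h and 1 at 96 h, against 17.2% and 12.8% of all genes. Of 6 myoblast markers, 4 were called higher and 1 lower at 48 h in growth media, and 3 and 1 at 96 h. In differentiation media 2 of the 6 were called higher at each hour and 0 lower. THY1, LUM and PDGFRA were well above background on all 3 siControl arrays at 24 h, DPT on 2 and TCF21 on none. THY1 and the 3 myotube genes were named after their values were seen. The part of these markers in the H1 results was not tested.

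The germ line H1 genes were looked at on the same arrays. H1-7, a spermatid H1, was well above background on all 29 arrays, with log2 differences from -0.22 to 0.30 in the 5 knockdown comparisons (adjusted p from 0.0971 to 0.905). H1-6, the testis H1, was well above background on 3 arrays, all of them siZNF148, and on no siControl array. These arrays read 4.11 at 48 h in differentiation media and 4.67 and 4.10 at 96 h in growth media. At 96 h in differentiation media, siZNF148 arrays at 4.14 and 4.44 were not well above background. At 24 h the group mean was 2.09 with siZNF148 and 3.12 with siControl, both at background. H1-6 was tested only through siZNF148 arrays near background, so no change is given for it. H1-8, the oocyte H1, was above background on 1 array and was not tested.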

How the data were processed

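RNA of 29 LHCN-M2 cultures was labelled with Cy3 and read on Agilent 1-colour arrays of 62976 spots, 2075 of them control spots. Signals were extracted with Agilent Feature Extraction 10.7.3.1, per the submitters' processing notes. The authors deposited the scanner intensity of each spot, background-subtracted and not scaled between arrays, and a matrix of log2 values that they had quantile-normalized over all arrays. Each matrix column matched its own array best (r at least 0.9952 across probes). Quantile normalization makes all arrays share 1 distribution, so a log2 change is relative to the other probes. The array headers name hg19 on 14 arrays and no build on 15, so no positions of probes are given, and promoter windows come from RefSeq on GRCh38.p14.

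The software was limma 3.58.1 on R 4.3.3, which fitted the matrix, and matplotlib 3.10.9 on Python 3.11.15 for the figures. Of 58201 probes, 38839 were well above background on at least 2 arrays and were tested in 1 fit with 10 group means (lmFit, contrasts.fit, eBayes, 2-sided). Benjamini-Hochberg adjustment ran over all tested probes of each comparison. Where a gene had several tested probes, the brightest on average stands for it. Where a group had no array well above background, the change is a bound against the lowest signal well above background on each array. The fit was tested on simulated arrays with known changes; it missed the first pass mark, and the mark was then reset to probes with a small spread. Groups come from the sample titles; the descriptions number the siZNF148 replicates at 48 h in growth media differently. Nothing says whether replicates were separate passages, so p-values measure the spread between these arrays. Same-numbered arrays did not deviate together (correlations from -0.16 to 0.12), so the numbers were not taken as pairs.

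The genes named are the H1 genes, the 3 genes nearest to each, ZNF148, and list members: the 3 largest rises and falls called at each hour in growth media, and NASP, HMGB2, HMGA2, CDK1 and CDK2. PTMA, marker genes and the H2B genes were named after their values were seen. Members and lists were chosen with earlier results of these data known. The other replacement H1 of the rule is not reported here. Alternatives were scanner signals quantile-normalized here or scaled to the 75th percentile, a normexp correction of median signals (offset 50), other filters, only the arrays compared, trended and robust variances, array weights, blocks for replicate or slide (the fixed slide block was chosen after seeing the data), each array left out in turn, the methods' test, the mean over all probes of a gene, and calls by adjusted p alone.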

Additional observations from a re-analysis of the deposited data

Results flagged for a closer look

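The knockdown effect on several H1 genes differed between hours or media by a contrast of contrasts in the same limma fit, past an adjusted p of 0.05 and 2-fold. The 24 h arrays were subconfluent and on a slide of their own, and the part of either in these differences was not tested.

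Between 24 and 48 h in growth media the log2 effect differed by -3.83 in H1-5, -3.26 in H1-1, -2.76 in H1-3 and -1.76 in H1-4. Between 24 and 96 h it differed by -6.30 in H1-5, -4.09 in H1-1, -3.34 in H1-3 and -1.59 in H1-4. Between 48 and 96 h it differed by -2.47 in H1-5 and by 1.01 in H1-2.

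In differentiation media less growth media at 48 h the log2 effect differed by 4.13 in H1-5, 3.19 in H1-3, 1.72 in H1-4, 1.35 in H1-1 and 1.18 in H1-2. At 96 h it differed by 3.57 in H1-3, 2.76 in H1-5, 2.10 in H1-4 and 2.06 in H1-1. Each H1-1 value uses at least 1 group in which no array was well above background, so it is a fitted value and not a measured size.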

How the results depend on the processing

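Across the alternatives, the number of H1 genes called moved by more than 1.5 times in the comparisons that follow, and the cause was not tested. With normexp correction it was 1 in place of 2 at 24 h, 2 in place of 4 at 48 h in growth media, 1 in place of 3 at 48 h in differentiation media, 1 in place of 3 for siControl from 48 to 96 h in differentiation media, and 0 in place of 1 for siZNF148 between media at 48 and at 96 h. With array weights it was 1 at 24 h and 0 for siZNF148 between media at 48 h. With scaling to the 75th percentile it was 0 for siZNF148 between media at 48 h and 1 in place of 2 for the difference of knockdown effects between 48 and 96 h, where slide as a random or as a fixed block also gave 1. The methods' test called 2 at 24 h at its threshold and 1 after Benjamini-Hochberg adjustment, and as many as limma in the other 4 knockdown comparisons. Without the fold threshold, which by construction adds calls, 6 H1 genes passed at 24 h. Of the 38839 tested probes, 4258 were then higher and 4921 lower. For knockdown at 48 h in differentiation media it was 5 H1 genes (9434 probes higher and 10974 lower). From 48 to 96 h in differentiation media it was 5 for siControl (6013 and 6499) and 5 for siZNF148 (4747 and 6108). In growth media it was 1 in place of 0 for siControl (453 and 148) and 5 for siZNF148 (4416 and 3949). For siZNF148 between media at 96 h it was 2 (3146 and 5265). Leaving out each array gave 1 to 2 called at 24 h, 1 to 2 for the difference of effects between 48 and 96 h, 0 to 1 for siControl from 48 to 96 h in growth media and 0 to 1 for siZNF148 between media at 48 h. Calls over all 38839 tested probes moved as well. At 24 h 741 were called higher and 1116 lower in the main fit, and 249 and 327 with normexp. Array weights gave 1029 and 1507. For knockdown at 48 h in growth media it was 3816 and 3976, and 2080 and 1943 with normexp. For siZNF148 between media at 48 h it was 421 and 814, and 129 and 266 with normexp.

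A sign turned only for differences that were not called. H1-1 became 0.01 for knockdown at 48 h in differentiation media with normexp, and with the 75th percentile 0.0048 for siZNF148 from 48 to 96 h in growth media and 0.074 for siZNF148 between media at 96 h. H1-10 became 0.061 with normexp for the difference of effects between 24 and 96 h, and H1-4 0.02 with the 75th percentile for siZNF148 between media at 48 h. Leaving out each array in turn, H1-1 ran from -0.98 to 0.025 for knockdown at 96 h in differentiation media, from -0.26 to 0.13 for siZNF148 from 48 to 96 h in growth media and from -0.67 to 0.34 for siZNF148 between media at 96 h. H1-10 ran from -0.11 to 0.056 for the difference of effects between 24 and 96 h and from -0.023 to 0.23 for siControl from 48 to 96 h in growth media. For siZNF148 between media at 48 h H1-2 ran from -0.039 to 0.084 and H1-4 from -0.069 to 0.027, and H1-4 ran from -0.056 to 0.39 for the difference of effects between 48 and 96 h.

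With the replicate number as a block, 1 call was lost, that of H1-1 for the difference of effects between media at 48 h (1.35, adjusted p = 0.0573); the numbers do not pair the arrays, and the block changed no other call among the 108 gene results. Signal over background limits H1-1 most, as it was well above background on 16 of 29 arrays.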
